A study of Mus musculus with 12 samples.

Results

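The mitochondrial genome supplied 9 well-covered transcripts to these libraries: 7 messenger RNAs (mt-Nd1, mt-Nd2, mt-Nd4, mt-Nd5, mt-Nd6, mt-Cytb and mt-Co1) and the 2 ribosomal RNAs mt-Rnr1 and mt-Rnr2. They were chosen by name among the mitochondrial genes with counts, with earlier results of these data known, as 9 of the 37 mitochondrial rows and of the 53465 genes in the count table. Of the other rows, 10 held no count in any library and the rest at most 163 in a library. The study measured RNA by sequencing in mouse hematopoietic stem cells sorted from bone marrow. Long-term stem cells (LT-HSCs) were lineage-negative, Kit-, Sca1- and CD150-positive cells without CD48 and CD34, and short-term stem cells (ST-HSCs) had the same phenotype but carried CD34. Both grew for 2 days in Stemline II with SCF (100 ng/ml) and Flt3 (2 ng/ml). Control cultures had no further addition, and the others had nicotinamide riboside (NR), a vitamin B3 compound that cells turn into NAD, at 1 mM, renewed after 24 h. Each of the 4 groups had 3 samples. The sources used here do not give the mouse strain, age or genotype, or whether samples came from separate mice or cultures, so p-values measure only the spread between these samples. In bulk RNA, fewer cells with a transcript and less of it per cell cannot be told apart.

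Mitochondrial DNA is copied into long transcripts that span nearly the whole circle and are then cut, mostly at the tRNA genes that lie between the other genes. The messenger RNAs code for subunits of respiratory complexes I, III and IV and of ATP synthase, and the ribosomal RNAs form the small (mt-Rnr1, 12S) and large (mt-Rnr2, 16S) subunits of the mitochondrial ribosome. Transcription needs the polymerase Polrmt and the packaging factor Tfam, while LRPPRC binds and stabilises the messenger RNAs. Resting hematopoietic stem cells rely little on respiration, and mitochondrial activity rises as they leave quiescence.

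The junction below shows how closely the members lie. It holds the end of mt-Rnr2, the tRNA gene mt-Tl1 in capitals and the start of mt-Nd1, with no base between the genes, at chrM:2646-2780 on the plus strand. All sequences here are 5′ to 3′ from GRCm38 with the GENCODE M21 annotation.
mt-Rnr2 to mt-Nd1: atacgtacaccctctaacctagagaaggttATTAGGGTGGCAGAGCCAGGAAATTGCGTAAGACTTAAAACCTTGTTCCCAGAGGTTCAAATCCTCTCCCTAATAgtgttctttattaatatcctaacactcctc
The RNAs on both sides of this tRNA can be cut from a shared precursor, and their values are set side by side below.

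On GRCm38 the ribosomal RNA genes are mt-Rnr1 (ENSMUSG00000064337, chrM:70-1024) and mt-Rnr2 (ENSMUSG00000064339, chrM:1094-2675). The complex I genes are mt-Nd1 (ENSMUSG00000064341, chrM:2751-3707), mt-Nd2 (ENSMUSG00000064345, chrM:3914-4951), mt-Nd4 (ENSMUSG00000064363, chrM:10167-11544), mt-Nd5 (ENSMUSG00000064367, chrM:11742-13565) and mt-Nd6 (ENSMUSG00000064368, chrM:13552-14070). The complex IV gene mt-Co1 (ENSMUSG00000064351) lies at chrM:5328-6872 and the complex III gene mt-Cytb (ENSMUSG00000064370) at chrM:14145-15288. Each is a single exon, as mitochondrial genes have no introns. Of the 9, only mt-Nd6 lies on the minus strand. Its last 14 bases overlap those of mt-Nd5, shown in capitals for both strands (mt-Nd5 at chrM:13522-13565, mt-Nd6 at chrM:13552-13595).
mt-Nd5: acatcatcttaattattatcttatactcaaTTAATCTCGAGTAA
mt-Nd6: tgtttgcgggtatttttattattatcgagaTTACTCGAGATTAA
Whether counting used strand is not given in the sources used here, so counts of mt-Nd6 cannot be told from reads of the opposite strand.

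Most of the mitochondrial protein genes without counts share nearly all of their sequence with nuclear transcripts. Of the 13 mitochondrial protein genes, 6 were not members. Of these, mt-Co2, mt-Atp8 and mt-Nd4l had 0 counts in all 12 libraries, mt-Atp6 had 2 counts in all and mt-Co3 had 1. From mt-Ts1 to mt-Tg (chrM:6870-9458) 8 genes held 3 counts together. From the end of mt-Co1 into mt-Nd4, the nuclear genome holds a copy that is annotated as 7 pseudogenes on chromosome 1. Of all 50-base windows, 100% of mt-Co2, 99.5% of mt-Atp6, 99.9% of mt-Co3, 98.8% of mt-Nd4l and 98.0% of mt-Nd3 occur in an annotated nuclear transcript. For mt-Atp8 no annotated nuclear transcript shared a window. It starts between mt-Co2 and mt-Atp6, whose copies lie at chr1:24614885-24615565 and chr1:24613974-24614651. The unannotated bases between these 2 pseudogenes were not compared, so a copy of mt-Atp8 there would have been missed. The pseudogenes themselves held 0 to 6 counts in a library, 83 counts over all 7 and all libraries. How reads that align to more than 1 place were treated is not given in the sources used here, and its part in the empty rows was not tested.

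The copy of mt-Nd3, the pseudogene Gm28438, differs from it at 1 base of 345, T3C (counted from the 5′ end of the gene, mitochondrial base before the position and nuclear base after it). The capital below marks that base, at chrM:9459-9491 and, on the minus strand, at chr1:24613087-24613119.
mt-Nd3: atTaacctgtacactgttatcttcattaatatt
Gm28438: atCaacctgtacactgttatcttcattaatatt
mt-Nd3 lay just outside the members, with 62 to 116 counts in a library, as did the tRNA mt-Tp with 65 to 163. The lowest member, mt-Nd6, had 2338 to 3770.

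Among the members, mt-Nd4 and mt-Co1 also share sequence with nuclear copies. Bases 1 to 876 of mt-Nd4 equal the pseudogene Gm28439 at 100% identity, and 62.2% of its windows and 51.1% of those of mt-Co1 are shared. The stretch at chrM:11013-11072 holds the end of that copy, with the bases past it in capitals.
mt-Nd4: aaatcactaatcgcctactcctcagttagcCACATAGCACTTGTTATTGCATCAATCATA
The share was 8.19% for mt-Nd2, 7.61% for mt-Nd5, 1.04% for mt-Rnr2 and 0 for mt-Rnr1, mt-Nd1, mt-Nd6 and mt-Cytb. Whether the counts of mt-Nd4 and mt-Co1 stand for the unshared part of each gene only was not tested.

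**Figure D1:**
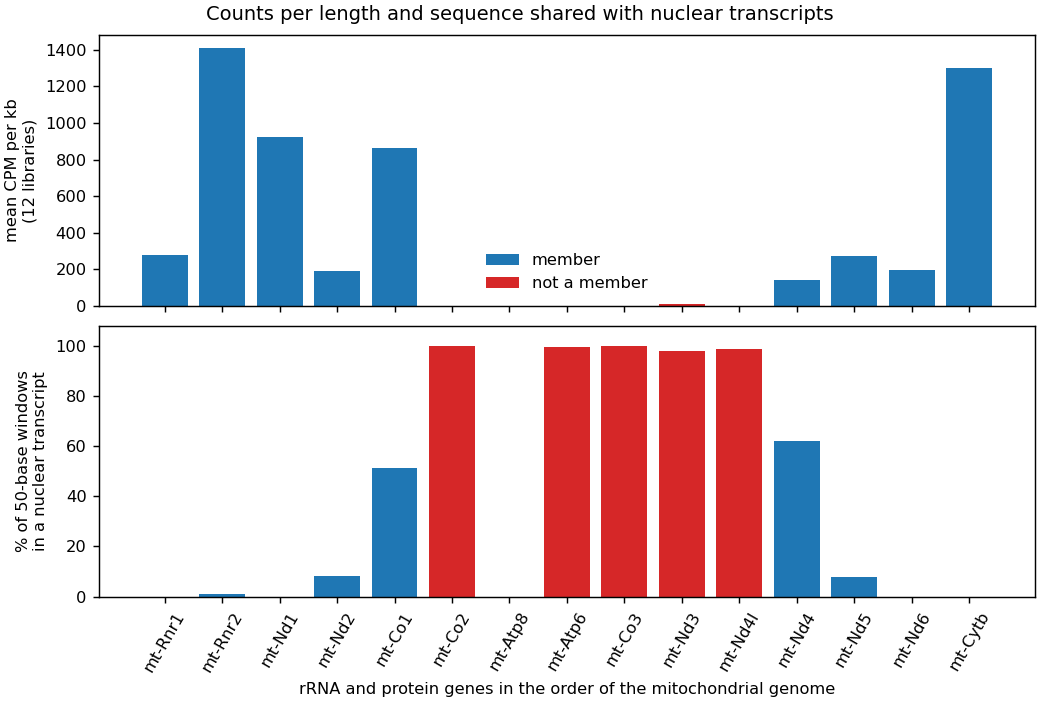
Top: mean level in CPM (counts per M gene counts) per kb of gene over 12 libraries, for the mitochondrial rRNA and protein genes in genome order. Bottom: share of each gene's 50-base windows that occur in a nuclear transcript. Genes with 98.0% to 100% of windows shared, and mt-Atp8, stand at or near 0 CPM per kb.

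Gene counts per library were 24.6 to 35.5 M (median 31.7 M). Between 8.69% and 28.5% of a library's reads fell in no annotated feature, and 2 libraries stood apart: sample 3 of NR-treated LT-HSCs (28.5%) and sample 3 of NR-treated ST-HSCs (26.2%), against at most 17.0% in the other 10. The sort markers went with the labels: Cd34 averaged 259 CPM in control LT-HSCs and 627 CPM in control ST-HSCs, and markers of T cells summed to at most 2.00 CPM, of B cells to at most 2.59 CPM and of monocytes and macrophages to at most 8.22 CPM. Granulocyte markers (Ly6g, Elane, Mpo) summed to 11.8 to 68.0 CPM in control LT-HSCs and 1.92 to 52.6 CPM with NR, and to 30.8 to 67.7 CPM and 7.46 to 47.5 CPM in ST-HSCs. The summed level of the megakaryocyte markers Pf4, Itga2b and Gp1bb was lower with NR, from 2270 to 2592 CPM down to 1436 to 1998 CPM in LT-HSCs and from 2532 to 2780 CPM down to 1505 to 1986 CPM in ST-HSCs. No marker of the 3 was at 0, and all 3 fell in edgeR averaged over both cell types. The part of these markers in the results below was not tested.

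Per length, mt-Rnr2 had the highest mean level over the 12 libraries (1409 CPM per kb, 1092 to 1927), followed by mt-Cytb (1301, 1087 to 1524), mt-Nd1 (924, 738 to 1132) and mt-Co1 (861, 741 to 974). The lower 5 were mt-Rnr1 (280.0 CPM per kb, 168 to 454), mt-Nd5 (276, 226 to 327), mt-Nd6 (199, 155 to 219.6), mt-Nd2 (192, 159 to 230.1) and mt-Nd4 (141, 116 to 164). In control ST-HSCs mt-Cytb was above mt-Rnr2, at 1424 ± 19.6 against 1167 ± 69.4 CPM per kb (SD, n = 3). Neighbours in the pooled order overlapped in their ranges, except that mt-Co1 lay wholly above mt-Rnr1 and mt-Nd5 wholly above mt-Nd6. If all counts of each gene came from its unshared windows, mt-Co1 would stand at 1820 and mt-Nd4 at 387 CPM per kb. That would put mt-Co1 above mt-Rnr2 (1470) and mt-Nd4 above mt-Nd5 (307). Reads were not counted apart by window, so this order was not tested. The 12S and 16S ribosomal RNAs are present in equal numbers in the ribosome. Here mt-Rnr2 had 7.04 to 10.8 counts per count of mt-Rnr1, with mt-Rnr2 the longer gene (1582 against 955 bases).

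With NR most mitochondrial messenger RNAs fell in both cell types, while the ribosomal RNAs rose in ST-HSCs and did not pass the test in LT-HSCs. In LT-HSCs 6 of 7 messenger RNAs fell and neither ribosomal RNA was called. In ST-HSCs 4 messenger RNAs fell and both ribosomal RNAs rose. A gene was called at an adjusted p under 0.05 in edgeR's quasi-likelihood test over all 19830 genes tested. Across all of these, 7.58% were called lower in LT-HSCs, 11.1% lower in ST-HSCs and 5.82% higher in ST-HSCs. Among the 5400 genes with a mean of at least 50 CPM, a range that holds all members, the shares called lower were 18.9% and 25.9%. With relative log expression factors or with no filter on low counts, 1 of the 7 messenger RNAs was called in ST-HSCs (mt-Nd1) beside both ribosomal RNAs. With no filter 4 messenger RNAs were called in LT-HSCs.

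The complex I messenger RNA mt-Nd1 codes for a core subunit in the membrane arm near the quinone site. In LT-HSCs it stood at 985, 1011 and 932 CPM in control samples 1 to 3 and at 706, 744 and 717 CPM with NR. In ST-HSCs it stood at 997, 1084 and 1062 CPM in controls and at 859, 806 and 713 CPM with NR. All NR samples lay below all controls in both cell types. The log2 change was -0.43 ± 0.07 (SE) in LT-HSCs (edgeR adjusted p = 0.00155) and -0.40 ± 0.07 in ST-HSCs (edgeR adjusted p = 0.00113), or 26.0% and 24.3% lower.

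The gene mt-Nd2 codes for a proton-pumping subunit of complex I. It stood at 213, 239 and 211 CPM in control LT-HSCs and at 165, 175 and 168 CPM with NR. In ST-HSCs it was at 216, 228 and 219.9 CPM in controls and at 194, 197 and 172 CPM with NR. The groups did not overlap in either cell type, and the log2 change was -0.39 ± 0.07 in LT-HSCs (edgeR adjusted p = 0.00347) and -0.24 ± 0.07 in ST-HSCs (edgeR adjusted p = 0.0277).

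The pumping subunit mt-Nd5 was at 596, 568 and 528 CPM in control LT-HSCs and at 444, 443 and 411 CPM with NR. In ST-HSCs the controls were at 565, 558 and 546 CPM and the NR samples at 472, 490.3 and 417 CPM. Again all NR samples lay below all controls of their cell type. The log2 change was -0.38 ± 0.07 (edgeR adjusted p = 0.00336) in LT-HSCs and -0.28 ± 0.07 (edgeR adjusted p = 0.0123) in ST-HSCs.

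The third pumping subunit, mt-Nd4, stood at 212, 219 and 209 CPM in control LT-HSCs and at 159, 180.3 and 166 CPM with NR, a log2 change of -0.34 ± 0.08 (edgeR adjusted p = 0.0129). In ST-HSCs it was at 207, 226 and 205 CPM in controls and at 183, 199.7 and 164 CPM with NR. These groups did not overlap either, but the log2 difference of -0.22 ± 0.08 missed the threshold (edgeR adjusted p = 0.0628).

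The minus-strand gene mt-Nd6, also a complex I subunit, was called lower in LT-HSCs and not in ST-HSCs. In LT-HSCs it was at 105, 111 and 104 CPM in controls and at 80.3, 94.1 and 86.5 CPM with NR, a log2 change of -0.30 ± 0.07 (edgeR adjusted p = 0.0168). In ST-HSCs the controls were at 113, 112 and 114 CPM and the NR samples at 104, 114 and 102 CPM, which overlapped, with a log2 difference of -0.08 ± 0.07 (edgeR adjusted p = 0.550). The difference between the cell types was 0.21 ± 0.10 on the log2 scale and did not pass (edgeR adjusted p = 0.830).

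Cytochrome b, the product of mt-Cytb, is the mitochondrially encoded subunit of complex III. Its RNA was at 1616, 1744 and 1552 CPM in control LT-HSCs and at 1316, 1333 and 1262 CPM with NR. In ST-HSCs it was at 1603, 1641 and 1644 CPM in controls and at 1451, 1462 and 1244 CPM with NR. All NR samples were lower than all controls of their cell type, with log2 changes of -0.33 ± 0.06 in LT-HSCs (edgeR adjusted p = 0.00588) and -0.23 ± 0.06 in ST-HSCs (edgeR adjusted p = 0.0229).

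The catalytic subunit of complex IV, mt-Co1, had the smallest difference of the 7 messenger RNAs in both cell types. It was at 1352, 1380.3 and 1270.2 CPM in control LT-HSCs and at 1247, 1145 and 1198 CPM with NR, without overlap. In ST-HSCs it was at 1401, 1432 and 1448 CPM in controls and at 1396, 1504 and 1191 CPM with NR, so that sample 2 with NR exceeded every control. Its log2 differences of -0.16 ± 0.07 in LT-HSCs (edgeR adjusted p = 0.232) and -0.07 ± 0.07 in ST-HSCs (edgeR adjusted p = 0.721) did not pass, and the ST value changed sign under other settings (0.01 with relative log expression factors).

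All 7 messenger RNAs lay below all controls in LT-HSCs, where 15.9% of all genes tested did so, and 5 of 7 did in ST-HSCs, where 20.9% did so. Their median log2 change was -0.34 in LT-HSCs and -0.23 in ST-HSCs, against 0.04 and -0.03 over all genes tested and -0.08 and -0.12 over the genes with at least 50 CPM. Sample 3 of NR-treated ST-HSCs, the library with 26.2% of reads in no feature, had the lowest NR value of all 7 messenger RNAs in ST-HSCs. Without it and its LT counterpart, 3 members were called in ST-HSCs: mt-Nd1 (-0.25, edgeR adjusted p = 0.0210) and the 2 ribosomal RNAs. mt-Nd2, mt-Nd5 and mt-Cytb then stood at -0.11, -0.14 and -0.09. In LT-HSCs 6 members were called without both libraries.

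Single libraries also ended calls of messenger RNAs. In ST-HSCs the calls of mt-Nd2 and mt-Cytb ended without NR-treated LT-HSC sample 1 or 2, any 1 of the 3 control ST-HSC samples, or NR-treated ST-HSC sample 3, with log2 differences from -0.28 to -0.11 for mt-Nd2 and -0.27 to -0.09 for mt-Cytb over all 12 such fits. The call of mt-Nd5 ended without NR-treated LT-HSC sample 1 or 2, control ST-HSC sample 1 or NR-treated ST-HSC sample 3 (-0.32 to -0.14). In LT-HSCs the calls of mt-Nd4 and mt-Nd6 ended without control sample 2 or NR sample 1, with mt-Nd4 between -0.35 and -0.30 and mt-Nd6 between -0.32 and -0.24. That of mt-Cytb ended without NR sample 2 (-0.31, edgeR adjusted p = 0.0633). The calls of mt-Nd6 (-0.25, edgeR adjusted p = 0.0982) and mt-Cytb (-0.28, edgeR adjusted p = 0.126) also ended with no filter. In these fits, which tested the same genes, mt-Nd1 was called in both cell types without any 1 library, from -0.47 to -0.41 in LT-HSCs and from -0.46 to -0.25 in ST-HSCs.

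Fewer calls were left where the filter was applied again to the 11 libraries, which tested 20217 to 22205 genes. In LT-HSCs 0 to 5 members were then called, with 0 in 6 of 12 fits: without control LT-HSC sample 1 or 2, any 1 of the 3 NR-treated LT-HSC samples, or NR-treated ST-HSC sample 2. mt-Nd1 was called in LT-HSCs in the other 6 (-0.47 to -0.37 over all 12). In ST-HSCs 0 to 3 members were called, with 0 without control ST-HSC sample 3. mt-Nd1 was called there in 3 of 12 fits (-0.43 to -0.23), without control LT-HSC sample 3, NR-treated LT-HSC sample 3 or NR-treated ST-HSC sample 1, and the other 6 messenger RNAs in 0.

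**Figure D2:**
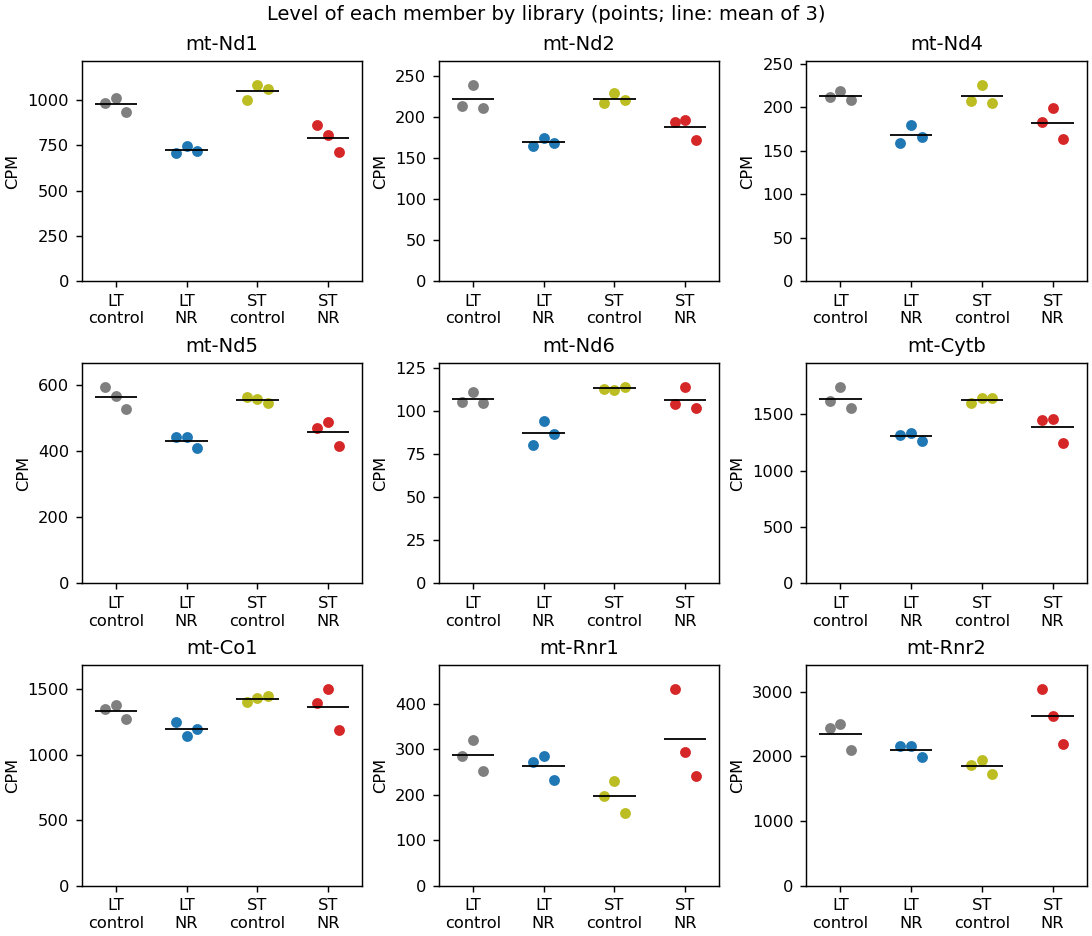
Level of each of the 9 members in CPM (scaled by TMM factors) in every library, by group, with a line at the mean of 3 and each axis starting at 0. mt-Nd1 lies lower with NR in both cell types, from 706 to 744 against 932 to 1011 CPM in LT-HSCs, while mt-Rnr2 with NR lies above its controls in ST-HSCs only.

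In ST-HSCs the ribosomal RNAs did not follow the messenger RNAs, while in LT-HSCs their differences had the same sign and were not called. The 16S RNA mt-Rnr2 stood at 1865, 1945 and 1728 CPM in control ST-HSCs and at 3048, 2626 and 2188 CPM with NR. In LT-HSCs it was at 2441, 2500.0 and 2103 CPM in controls and at 2155, 2169 and 1989 CPM with NR. The ST groups did not overlap, with NR higher, and the LT groups did. The log2 change was 0.51 ± 0.10 in ST-HSCs (edgeR adjusted p = 0.00405), or 41.9% higher, and the log2 difference in LT-HSCs was -0.16 ± 0.10 (edgeR adjusted p = 0.432).

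The 12S RNA mt-Rnr1 stood at 198, 231 and 161 CPM in control ST-HSCs and at 433, 294 and 240.2 CPM with NR, again without overlap. In LT-HSCs it was at 286, 321 and 253 CPM in controls and at 273, 286 and 232 CPM with NR, which overlapped. Its log2 change was 0.71 ± 0.19 in ST-HSCs (edgeR adjusted p = 0.0182), or 64.1% higher, and the log2 difference in LT-HSCs was -0.12 ± 0.19 (edgeR adjusted p = 0.775). Across all genes tested 11.9% lay wholly above their controls in ST-HSCs.

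The size of the rise in ST-HSCs varied between NR samples. It was largest in sample 1, which had 9.17% of reads in no feature, and smallest in sample 3, which had 26.2%. Without the 2 libraries rich in such reads the log2 change was 0.70 for mt-Rnr2 (edgeR adjusted p = 0.000365) and 0.97 for mt-Rnr1 (edgeR adjusted p = 0.00213), so it was larger without them. Without sample 1 with NR it was 0.38 for mt-Rnr2 (edgeR adjusted p = 0.0153) and 0.44 for mt-Rnr1 (edgeR adjusted p = 0.0750). The call of mt-Rnr1 also ended without control ST-HSC sample 1 (0.72, edgeR adjusted p = 0.0584) or sample 3 (0.59, edgeR adjusted p = 0.0852). For mt-Rnr2 it held without any single library where the same genes were tested. With the filter applied again it ended without control ST-HSC sample 3 (0.52, edgeR adjusted p = 0.0541) or NR-treated ST-HSC sample 1 (0.42, edgeR adjusted p = 0.0797), and that of mt-Rnr1 also without NR-treated ST-HSC sample 2 (0.84, edgeR adjusted p = 0.0554).

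The difference of the NR effects between the cell types was 0.66 ± 0.14 for mt-Rnr2 (ST minus LT, log2) and 0.83 ± 0.26 for mt-Rnr1. Neither passed the test over all genes (edgeR adjusted p = 0.263 and 0.583), in a comparison where 0.0101% of genes did. For mt-Rnr2 the call depended on the method: it passed with DESeq2 (adjusted p = 0.00115) and in edgeR on genes with at least 5 CPM (adjusted p = 0.0312), with the share of reads in no feature as a covariate (adjusted p = 0.0409) and with the sample number as a block (0.65, adjusted p = 0.0145). More genes of any kind were called under these settings than the 2 higher and 0 lower of the main fit. There were 98 higher and 42 lower with DESeq2, and 27 and 10 of 10475 at 5 CPM or more. With the covariate there were 7 and 3, and with the block 12 and 3. For the 7 messenger RNAs the difference ran from 0.03 (mt-Nd1) to 0.21 (mt-Nd6), with none called. At an unadjusted p under 0.05 edgeR gave 2 of the 9 members, the ribosomal RNAs, with no share of all genes at that threshold given here.

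**Figure D3:**
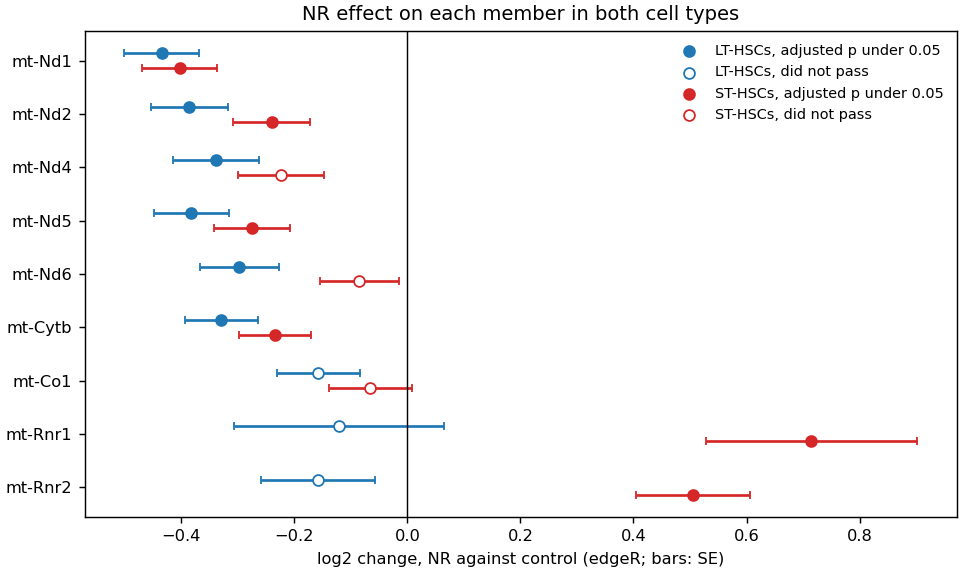
Log2 change with NR against control for each member in LT-HSCs (blue) and ST-HSCs (red), with the SE from edgeR as bars and filled points for adjusted p under 0.05. The 7 messenger RNAs lie left of 0 in both cell types, and the ribosomal RNAs lie at 0.71 and 0.51 in ST-HSCs against -0.12 and -0.16 in LT-HSCs.

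Averaged over both cell types, 6 of the 9 members fell and none rose in edgeR, where 16.1% of all genes tested and 36.2% of those with at least 50 CPM were called lower. At an unadjusted p under 0.05 all 9 passed, but the share of all genes at that threshold is not given here. mt-Co1 stood at -0.11 ± 0.05 (edgeR adjusted p = 0.154), mt-Rnr2 at 0.17 ± 0.07 (edgeR adjusted p = 0.106) and mt-Rnr1 at 0.30 ± 0.13 (edgeR adjusted p = 0.135). Without the 2 libraries with most reads in no feature both ribosomal RNAs were called higher, at 0.30 (edgeR adjusted p = 0.00655) and 0.48 (edgeR adjusted p = 0.0129). The smallest of the 6 changes was that of mt-Nd6, at -0.19 ± 0.05 (edgeR adjusted p = 0.0123), and it did not pass without those libraries (-0.13), with no filter (-0.13), without NR-treated LT-HSC sample 1 (-0.14, edgeR adjusted p = 0.0858) or without NR-treated ST-HSC sample 3 (-0.13, edgeR adjusted p = 0.0816). Without that last sample alone both ribosomal RNAs were called higher (0.28 and 0.43). mt-Rnr2 was also called with either other scaling, DESeq2, limma-voom, at least 5 CPM, the block or the covariate (0.17 to 0.25), and mt-Rnr1 with no filter, at least 5 CPM, the block or the covariate (0.29 to 0.37). mt-Co1 was called lower without NR-treated ST-HSC sample 2 (-0.15, edgeR adjusted p = 0.0372). These single-library fits tested the same genes. More averaged calls ended where low-count filtering was redone after dropping 1 library. mt-Nd6 was then called in 0 of 12 fits (-0.18 to -0.10, edgeR adjusted p from 0.0994 to 0.372). mt-Nd4 was called in 5 (-0.28 to -0.18) and mt-Cytb in 7 (-0.27 to -0.17). mt-Nd2 and mt-Nd5 were each called in 11 and mt-Nd1 in 12.

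The ratio of messenger to ribosomal RNA does not depend on how libraries are scaled. Summed over the members, there were 1.86, 1.87 and 2.04 messenger RNA counts per ribosomal RNA count in control LT-HSCs and 1.70, 1.68 and 1.81 with NR. In ST-HSCs the ratio was 2.47, 2.43 and 2.77 in controls and 1.34, 1.63 and 1.65 with NR. No pair of groups that differ in treatment or cell type alone overlapped. As the members were chosen with earlier results in view, the ratio is described without a test.

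Control ST-HSCs had the highest ratio (log2 mean 1.35 ± 0.10, SD, n = 3) and ST-HSCs with NR the lowest (0.62 ± 0.17), with LT-HSCs between them in control culture (0.94 ± 0.07) and with NR (0.79 ± 0.06). NR thus went with a ratio of 0.601 times the control value in ST-HSCs and 0.897 times in LT-HSCs, and the order of the cell types was the opposite in control culture and with NR. Leaving out each library in turn moved the log2 change in ST-HSCs between -0.79 and -0.64 and in LT-HSCs between -0.19 and -0.11.

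Both parts of the ratio differed between treatments in ST-HSCs. The summed messenger RNA went from 5207 ± 93.5 to 4477 ± 417 CPM (mean ± SD, n = 3) and the summed ribosomal RNA from 2043 ± 145 to 2943 ± 527 CPM. In LT-HSCs the messenger RNA went from 5052 ± 233 to 4080 ± 61.6 CPM and the ribosomal RNA from 2635 ± 245 to 2368 ± 128 CPM. Only the messenger RNA groups of LT-HSCs and both sums in ST-HSCs were without overlap between treatments. All 9 members together were 0.655% to 0.832% of the gene counts of any NR library and 0.679% to 0.774% of those of any control library.

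**Figure D4:**
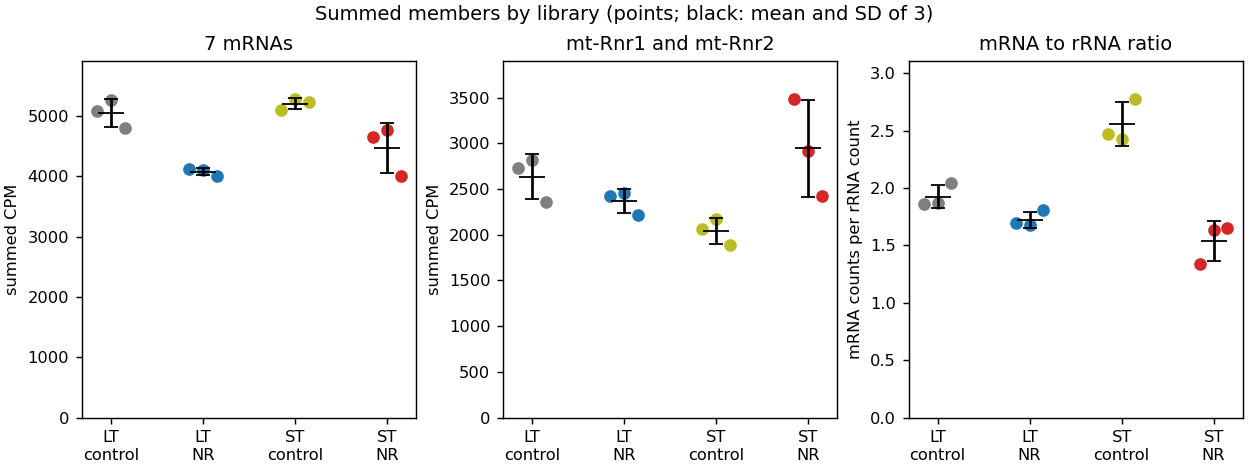
Summed CPM of the 7 messenger RNAs, summed CPM of the 2 ribosomal RNAs and the ratio of their counts, by library (points), with the mean and SD of 3 in black and axes from 0. The ratio is 2.43 to 2.77 in control ST-HSCs and 1.34 to 1.65 in ST-HSCs with NR.

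The shares of single members in the messenger RNA differed too. mt-Nd1 made up 19.4%, 19.2% and 19.4% of messenger RNA counts in control LT-HSCs and 17.2%, 18.1% and 17.9% with NR. In ST-HSCs it made up 19.5%, 20.5% and 20.3% in controls and 18.4%, 16.9% and 17.8% with NR. The share of mt-Co1 moved the other way, from 26.4 ± 0.22% to 29.3 ± 1.3% in LT-HSCs and from 27.4 ± 0.27% to 30.4 ± 0.96% in ST-HSCs (SD, n = 3). Neither share overlapped between treatments in either cell type. The 2 genes are read from the same strand, with mt-Nd1 directly behind the ribosomal RNA genes.

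Across the 12 libraries the messenger RNAs varied together and the ribosomal RNAs varied together. Pearson's r of log2(CPM + 1) ran from 0.69 to 0.98 over the 21 pairs of messenger RNAs, was 0.95 between mt-Rnr1 and mt-Rnr2, and ran from -0.27 to 0.15 over the 14 pairs of a messenger with a ribosomal RNA. These points share libraries and treatment groups and are given as a description. The lowest values within the messenger RNAs were those of mt-Co1 with mt-Nd4 and mt-Nd5 (both 0.69).

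Between the cell types, none of the 9 members was called by edgeR in control culture, where 5.01% of all genes tested were called. At an unadjusted p under 0.05 there were 2, the ribosomal RNAs, and DESeq2 called 1, mt-Rnr2. The share of all genes at the unadjusted threshold is not given here. mt-Rnr2 and mt-Rnr1 were the nearest, at 0.35 ± 0.10 and 0.54 ± 0.19 on the log2 scale (LT against ST, edgeR adjusted p = 0.0750 and 0.145). All LT controls lay above all ST controls for both. They lay below all ST controls for mt-Co1 (1270 to 1380 against 1401 to 1448 CPM) and mt-Nd6 (104 to 111 against 112 to 114 CPM). The share of all genes without overlap between these groups is not given here. Without the 2 libraries rich in unassigned reads both ribosomal RNAs were called higher in LT-HSCs (edgeR adjusted p = 0.0179 and 0.0459). The same held without NR-treated ST-HSC sample 1 alone (edgeR adjusted p = 0.0264 and 0.0345). For the 7 messenger RNAs the log2 differences ran from -0.10 (mt-Nd1) to 0.02 (mt-Nd5).

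With NR, mt-Nd6 was lower in LT- than in ST-HSCs, with a log2 difference of -0.29 ± 0.07 (edgeR adjusted p = 0.0244), a direction in which 2.27% of genes were called. Where the same genes were tested, the call ended without sample 1 or 3 of NR-treated LT-HSCs or sample 1 or 2 of NR-treated ST-HSCs. In each case 0 members were called. With the filter applied again mt-Nd6 was called in 1 of 12 fits (edgeR adjusted p from 0.0250 to 0.417), and 11 of the 12 called 0 members. mt-Rnr2 stood at -0.32 ± 0.10 (edgeR adjusted p = 0.0976) and mt-Rnr1 at -0.29 ± 0.19 (edgeR adjusted p = 0.531), so that both had the opposite sign to control culture. With the sample number as a block mt-Rnr2 was called lower (-0.31, edgeR adjusted p = 0.00634).

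Outside the members, 6 mitochondrial rows passed the filter on low counts: mt-Nd3 and the tRNAs mt-Tp, mt-Tq, mt-Tl1, mt-Ta and mt-Tc. Averaged over both cell types, mt-Tp fell by 0.43 on the log2 scale (edgeR adjusted p = 0.0225), from 3.40 to 2.39 CPM in LT-HSCs and from 4.71 to 3.68 CPM in ST-HSCs. mt-Nd3 missed the threshold and stood at -0.40 ± 0.14 (edgeR adjusted p = 0.0564). The tRNA between the ribosomal RNAs and mt-Nd1, mt-Tl1, stood at 0.00 ± 0.41 (edgeR adjusted p = 0.996), too wide an error to place it with either neighbour.

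The nuclear subunits of the complexes that the messenger RNAs serve also fell with NR. Averaged over both cell types, edgeR called lower 7 of 7 core subunits of complex I (median log2 change -0.28), 9 of 9 subunits of complex III (-0.33) and 10 of 10 of complex IV (-0.36), and none higher, where 36.2% of genes with at least 50 CPM were called lower. In LT-HSCs alone the numbers were 4, 8 and 10, and in ST-HSCs alone 4, 5 and 10. The median of the 7 mitochondrial messenger RNAs was -0.28. In complex I, Ndufs1, Ndufv2, Ndufs8 and Ndufv1 stood at -0.39, -0.34, -0.27 and -0.32. In complex III, Uqcrq, Uqcrc1, Cyc1 and Uqcr11 stood at -0.53, -0.44, -0.46 and -0.44. In complex IV, Cox7b, Cox6a1, Cox8a and Cox5a stood at -0.52, -0.47, -0.36 and -0.44, with mt-Co1 at -0.11 beside them.

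Of 33 tested genes for mitochondrial transcription and RNA processing, 14 were lower and 1 was higher with NR averaged over both cell types (median -0.14). Across all genes tested 16.1% were called lower and the median was 0.03. Among genes with at least 50 CPM 36.2% were called lower and the median was -0.10. The list was not limited to that level, and no background matched to it by level was tested. Lrpprc, whose product stabilises the messenger RNAs, fell by 0.42 in LT-HSCs (edgeR adjusted p = 0.00232) and by 0.68 in ST-HSCs (edgeR adjusted p = 3.98e-05) on the log2 scale. Its averaged change was -0.55 ± 0.05. The helicase of RNA decay Supv3l1 (-0.43), the ribosome-associated factor Ptcd3 (-0.35) and the tRNA 5′-end nuclease Prorp (-0.41) fell with it. Tfam fell by 0.16 (edgeR adjusted p = 0.0375), and the polymerase Polrmt stood at 0.06 ± 0.05 (edgeR adjusted p = 0.527). The gene that was higher was Hsd17b10 (0.30 ± 0.07, edgeR adjusted p = 0.00423), a subunit of the enzyme that cuts tRNA 5′ ends, named after its value was seen.

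Of 13 genes for copying mitochondrial DNA, 7 were lower and 1, Primpol, was higher (0.29 ± 0.08, named after its value was seen). Their median was -0.21. The backgrounds were the same, 16.1% called lower and a median of 0.03 over all genes tested, or 36.2% and -0.10 at 50 CPM or more. The helicase Twnk stood at -0.37 ± 0.06, the ligase Lig3 at -0.48 ± 0.07, the topoisomerase Top1mt at -0.64 ± 0.10 and the nuclease Dna2 at -0.29 ± 0.05, all called lower. The copy number of mitochondrial DNA was not analysed here.

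RNA that is listed as mostly lacking poly(A) tails was looked at beside the ribosomal RNAs. The libraries were made with SMART-seq v4, which primes on poly(A) tails, from 2.5 ng of RNA. A list of 13 RNAs taken to mostly lack tails held replication histones and small structural RNAs, and their tails were not measured here. It had 6 tested genes, of which 3 fell and 1 rose in ST-HSCs (median log2 change -0.45). The summed level of the 11 in the table was 154 to 189 CPM in control ST-HSCs and 113 to 137 CPM with NR, and 163 to 199.7 CPM in control LT-HSCs and 134 to 162 CPM with NR. Averaged over both cell types Hist1h2bc stood at -1.07 ± 0.12, Hist1h4i at -0.44 ± 0.09 and Hist1h4d at -0.31 ± 0.09, while the structural RNA Rn7sk stood at 1.00 ± 0.16, all called. How priming contributed to the ribosomal RNA counts was not tested.

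**Figure D5:**
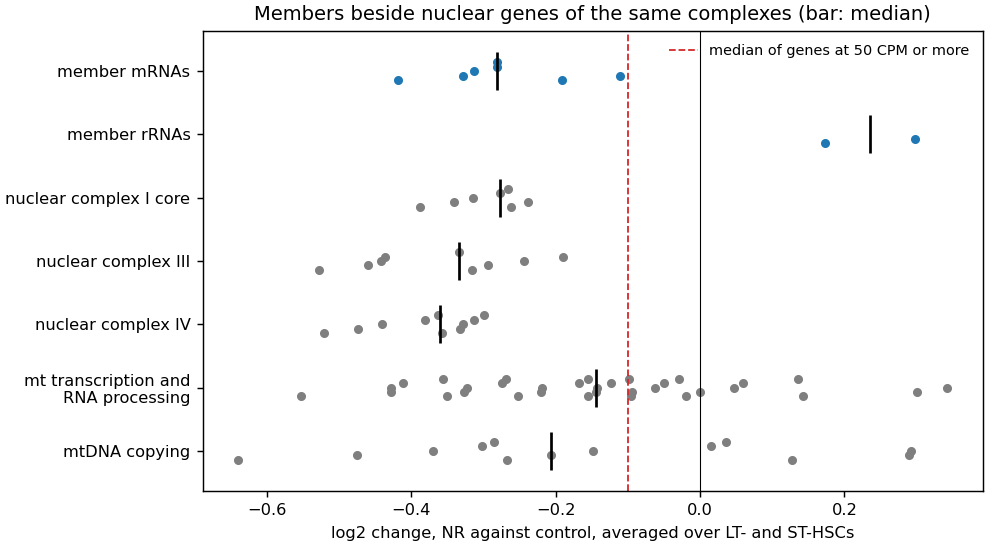
Log2 change with NR averaged over both cell types for the members (blue) and for nuclear genes of the same complexes, of mitochondrial transcription and RNA processing, and of mitochondrial DNA copying (grey), with black bars at the medians and a dashed line at the median of genes with at least 50 CPM (-0.10). The messenger RNAs lie between -0.42 and -0.11 (median -0.28) and the 2 ribosomal RNAs lie right of 0.

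Among 10464 other genes with at least 5 CPM, those whose levels over the 12 samples were most like the summed messenger RNAs included Rps25 (r = 0.98), Cct8 (0.98), Minos1 (0.97) and Rps27a (0.97). Rps25 and Rps27a code for proteins of the small subunit of the cytosolic ribosome, Cct8 for a subunit of a chaperonin and Minos1 for a protein that shapes the inner mitochondrial membrane. Most like the summed ribosomal RNAs were AW112010 (r = 0.88), Anxa7 (0.88), Mgmt (0.87), Rab32 (0.86) and Rnh1 (0.86). These r values were the highest of many, over samples that share 4 group means.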

How the data were processed

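The deposited table holds whole-number counts of reads per Ensembl gene, with 1 column per library. Per the submitters' processing notes, the authors used FastQC 0.11.2, STAR 2.5.0b and HTSeq 0.6.1 to make these counts. The sources used here do not give the genome build, annotation release, strand setting, read length or read filter. Of 53465 genes 53274 matched a symbol in GENCODE M21. HTSeq's rows for unassigned reads entered neither library sizes nor tests, and 0 columns were not used.

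Groups were read from the labels. Genes were filtered with filterByExpr (by group, with a minimum count of 10 and a minimum total of 15) and fitted with edgeR 4.0.16 in R 4.3.3. The quasi-likelihood test was two-sided, used TMM factors, took the 12 samples in a single fit of 4 means with 8 residual degrees of freedom, and was adjusted by Benjamini-Hochberg over 19830 genes. CPM are scaled by TMM factors. Within groups no libraries were duplicates, with chi-square per degree of freedom from 5.97 to 35.5. The deviations of same-numbered samples from their group means correlated over 0.1 in each of the 3 pairs of LT-HSCs with and without NR (0.51, 0.25 and 0.71). So did those of LT- and ST-HSCs with NR (0.74, 0.15 and 0.84). Yet control LT-HSC sample 2 went better with NR-treated LT-HSC sample 1 (0.33) than with its own number. NR-treated LT-HSC sample 2 likewise went better with NR-treated ST-HSC sample 1 (0.37). The labels do not say what a number shares, and the main fit did not pair samples. Intervals from counting alone are not given, as amplified reads without molecular identifiers are not independent molecules.

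The members and gene lists were chosen with earlier results of these data known. The text names all members, other mitochondrial rows that passed the filter, up to 4 genes a list with the smallest averaged-NR p, Tfam, Polrmt and Lrpprc, and the 5 nameable genes most like each sum, of which 1 is not reported here. Sequences and nuclear copies came from GRCm38 with GENCODE M21, compared in exact 50-base windows against annotated transcripts. The fit was also run on simulated counts, drawn from its own dispersions and independently for each library. Such counts lack the correlations between samples seen here, so they cannot show how these affect the p-values. Other settings tried were upper-quartile and relative log expression factors, TMM without mitochondrial rows, DESeq2 1.42.0, limma-voom (3.58.1), no filter, genes with at least 5 CPM, a sample-number block, only the groups compared, the unassigned share as a covariate, and leaving out libraries. Leaving out libraries with the filter applied again was added after seeing the data.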

Additional observations from a re-analysis of the deposited data

How the results depend on the processing

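The messenger to ribosomal RNA ratio kept its direction in its 6 comparisons with the mean of log2 counts, without mt-Nd6, without mt-Co1, with mt-Rnr2 alone and without the 2 libraries, and scaling, filters and models do not enter it. With each library left out in turn its log2 change ran from -0.19 to -0.11 in LT-HSCs, -0.79 to -0.64 in ST-HSCs, -0.47 to -0.40 averaged and -0.63 to -0.48 for the difference of effects, and the log2 difference of LT- from ST-HSCs from -0.45 to -0.35 in control culture and 0.07 to 0.22 with NR.

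Of 9 members, 6 were called in LT-HSCs and 6 in ST-HSCs. The ST number was 3 with relative log expression factors, with no filter and without the 2 libraries with over 20% of reads in no feature. For the difference of effects it was 0, and 1 (mt-Rnr2) with DESeq2, with genes of at least 5 CPM and with the unassigned share as a covariate. For LT- against ST-HSCs in control culture it was 0, but 1 with upper-quartile factors, DESeq2, no filter or the covariate, and 2 with limma-voom, at least 5 CPM, only the groups compared or without the 2 libraries. With NR it was 1, but 2 with upper-quartile factors, at least 5 CPM or the covariate, 3 with DESeq2 or without the 2 libraries, and 0 with only the groups compared. The cause of these moves was not tested. With each library left out and the same genes tested, the numbers ran from 4 to 6 in LT-HSCs, 2 to 7 in ST-HSCs, 5 to 7 averaged, 0 to 0 for the difference, 0 to 2 in control culture and 0 to 3 with NR. The ST number fell by over 1.5 times to 3 without NR-treated LT-HSC sample 1 or 2, control ST-HSC sample 3 or NR-treated ST-HSC sample 3, and to 2 without control ST-HSC sample 1. With the filter applied again, which lets more low-count genes in, they ran from 0 to 5, 0 to 3, 2 to 7, 0 to 0, 0 to 1 and 0 to 3.

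Of 1179 single-gene values under other settings, 191 were no longer past the threshold, 51 came to pass it and 25 changed sign. mt-Co1 in ST-HSCs stood at 0.00947 with relative log expression factors, 0.0095 with DESeq2, 0.00823 with no filter and 0.00949 at 5 CPM or more, and at 0.10 without the 2 libraries. With each library left out it ran from -0.142 to 0.0973, or to 0.126 with the filter applied again, and averaged from -0.149 to 0.00333. mt-Nd6 in ST-HSCs stood at 0.0208 without the 2 libraries and ran from -0.136 to 0.0208 with each left out, or to 0.0496 with the filter applied again. mt-Rnr1 in LT-HSCs stood at 0.00146 with the covariate and ran from -0.205 to 0.0246 with each library left out, and its difference between the cell types with NR from -0.510 to 0.00376. The median of all genes in LT-HSCs, in ST-HSCs or averaged moved by over 0.1 with no filter (0.19, 0.10 and 0.27) and limma-voom (-0.10, -0.11 and -0.13), in LT-HSCs and averaged with the covariate (-0.11 and -0.12) and without NR-treated LT-HSC sample 3 (-0.11 and -0.10), averaged without the 2 libraries (-0.10), and by 0.10 to 0.13 in 5 values with the filter applied again. Of calls in LT-HSCs, 23.9% were higher, against 37.4% with relative log expression factors; in ST-HSCs 34.5% against 51.7%.

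Same-numbered samples did not all deviate together between ST-HSCs with and without NR (0.67, -0.06 and 0.55). Nor did they between the cell types in control culture (0.42, -0.23 and 0.43), so there a pairing would rest on a number only. Of all 12 pairs 10 were over 0.1, and 7 of 12 correlated best with their own number. With the sample number as a replicate block, 6 members were called in LT-HSCs (no call changed), 7 in ST-HSCs (mt-Nd4 added, adjusted p = 0.0141), 8 averaged, 1 for the difference (mt-Rnr2, 0.65, adjusted p = 0.0145), 2 between the cell types in control culture and 2 with NR. The block raised the number of calls over all 19830 genes in every comparison. In ST-HSCs these were 1361 higher and 2653 lower, against 1155 and 2193 without it. In LT-HSCs they were 670 and 1898, against 472 and 1503. For the difference they were 12 and 3, against 2 and 0.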
